A study of Mus musculus with 6 samples.

Results

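Acetylation of histone H3 at lysine 56 (H3K56ac) was mapped by ChIP-seq in mouse embryonic stem cells, and the peaks described here are those that touched the body, or the 50 kb on either side, of the 8 genes that write, copy and erase DNA methylation: Tet1, Tet2, Tet3, Dnmt1, Dnmt3a, Dnmt3b, Dnmt3l and Uhrf1. Of the 11106 peaks of the merged set, 34 met this rule. Gene bodies and starts were those of GENCODE M21 on mm10, in which these are 8 of 21938 protein-coding genes. The cells were of the V6.5 line, grown with LIF on a feeder layer, and carried a lentiviral shRNA, either scrambled (Scramble) or directed at Sirt6 (Sirt6 KD), under puromycin selection in both groups. Each group had 2 H3K56ac libraries and 1 input library, 6 libraries in all. The peaks of all H3K56ac libraries were deposited as 1 merged list of positions, with no height and no library of origin. The paper lists the total reads of each library and counts more peaks in each Sirt6 KD library than in each Scramble library. A peak of the merged list thus need not have been called in Scramble cells. The number of reads behind a peak is unknown, the 2 groups cannot be compared and no replicate error can be given. All values below are therefore descriptions of where peaks lay, with no test.

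DNA methylation in mammals is laid down on CpG dinucleotides by DNMT3A and DNMT3B, which the catalytically inactive DNMT3L stimulates in germ cells and early embryos. After replication it is copied by DNMT1, which UHRF1 brings to hemimethylated DNA. The TET enzymes TET1, TET2 and TET3 oxidise 5-methylcytosine to 5-hydroxymethylcytosine and beyond, the entry to demethylation, and TET1 and TET2 are the forms known from embryonic stem cells, whereas TET3 is best known from the egg and zygote and from differentiated cells. SIRT6 is a deacetylase of H3K56, a mark found at active promoters and enhancers.

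A start was called carried when a peak base lay on it. By this rule 5 of the 8 genes had a carried start, namely Tet1, Tet2, Dnmt1, Dnmt3l and Uhrf1, and Tet3, Dnmt3a and Dnmt3b had none. Among all protein-coding genes, 25% had a carried start. The 8 genes have between 5 and 18 distinct annotated starts each, where the median gene has 3, and among the 7831 genes with 5 or more distinct starts the share was 41.6%. A start was called rich in CpG when its observed over expected CpG ratio was above 0.6 in the 500 bp on either side. Among the 10078 genes whose outermost start was rich in CpG, the share was 42.1%. Of the 8 genes, Tet2 and Dnmt3b had such an outermost start, with ratios of 0.75 and 0.83. Among the 11860 genes with a ratio of 0.6 or less there, the share was 10.5%. Tet1, Dnmt1, Dnmt3l and Uhrf1 were of that class and had a carried start, and Tet3 and Dnmt3a were of it and had none. All of the 8 but Dnmt3l had at least 1 start above 0.6.

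The sequence just upstream of the carried start of each of the 5 genes is given first, since these are the bases that lay under the peaks. Every base of these 5 windows was under a peak, and the windows were shortened where an upstream exon began. Capitals mark matches on either strand to 4 short motifs, the SP/KLF box GGGCGG, the NF-Y box CCAAT, the E-box CACGTG and the E2F motif TTTNNCGC. The sequences are written 5′ to 3′ along the gene, on GRCm38 (mm10), and all 5 starts were found in the RefSeq promoter table.
Tet1, chr10:62887325-62887412, minus strand: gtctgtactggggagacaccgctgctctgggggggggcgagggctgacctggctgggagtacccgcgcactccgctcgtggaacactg
Tet2, chr3:133544391-133544590, minus strand: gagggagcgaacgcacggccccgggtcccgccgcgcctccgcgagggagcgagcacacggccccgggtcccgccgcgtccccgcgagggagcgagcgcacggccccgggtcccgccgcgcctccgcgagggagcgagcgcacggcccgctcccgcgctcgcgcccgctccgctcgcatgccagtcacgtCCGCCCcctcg
Dnmt1, chr9:20952624-20952707, minus strand: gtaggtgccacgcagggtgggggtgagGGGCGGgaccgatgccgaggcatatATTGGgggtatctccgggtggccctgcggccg
Dnmt3l, chr10:78049642-78049841, plus strand: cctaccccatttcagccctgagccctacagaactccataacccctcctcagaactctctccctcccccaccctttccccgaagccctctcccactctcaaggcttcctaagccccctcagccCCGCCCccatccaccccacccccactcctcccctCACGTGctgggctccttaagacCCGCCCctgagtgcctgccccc
Uhrf1, chr17:56304113-56304312, plus strand: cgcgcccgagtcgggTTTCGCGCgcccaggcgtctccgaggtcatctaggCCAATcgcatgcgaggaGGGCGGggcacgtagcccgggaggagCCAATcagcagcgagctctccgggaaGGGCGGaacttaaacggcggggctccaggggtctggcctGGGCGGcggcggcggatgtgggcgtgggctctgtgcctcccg

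The corresponding windows of the 3 genes without a carried start follow for comparison, and no base of them was under a peak. For Dnmt3a both the start of the long form and that of the short form are shown. The 4 windows were read from the GRCm38.p6 reference genome, with the same marking. The window of the long form of Dnmt3a ends 51 bp before the start of transcript Dnmt3a-201, and that of Dnmt3b ends 2 bp before the start of Dnmt3b-202.
Tet3, chr6:83456393-83456592, minus strand: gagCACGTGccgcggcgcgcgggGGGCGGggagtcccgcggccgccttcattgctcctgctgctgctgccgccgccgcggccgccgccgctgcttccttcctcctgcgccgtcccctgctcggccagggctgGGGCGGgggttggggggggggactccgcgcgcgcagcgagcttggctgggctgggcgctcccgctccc
Dnmt3a, long form, chr12:3806780-3806979, plus strand: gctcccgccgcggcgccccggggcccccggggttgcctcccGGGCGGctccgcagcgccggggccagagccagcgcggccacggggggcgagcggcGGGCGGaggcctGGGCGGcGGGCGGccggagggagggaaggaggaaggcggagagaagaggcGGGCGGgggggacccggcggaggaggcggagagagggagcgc
Dnmt3a, short form, chr12:3891528-3891727, plus strand: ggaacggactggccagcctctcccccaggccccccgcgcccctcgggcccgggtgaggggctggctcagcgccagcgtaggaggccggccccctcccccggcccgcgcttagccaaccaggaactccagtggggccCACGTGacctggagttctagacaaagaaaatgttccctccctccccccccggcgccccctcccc
Dnmt3b, chr2:153649249-153649448, plus strand: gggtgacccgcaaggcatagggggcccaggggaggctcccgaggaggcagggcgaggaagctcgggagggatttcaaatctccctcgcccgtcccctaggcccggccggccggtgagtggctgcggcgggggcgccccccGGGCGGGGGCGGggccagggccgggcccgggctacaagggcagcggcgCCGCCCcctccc

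Both sets held CpG-dense windows. The 200 bases upstream of Tet2 held 40 CpG and those of Uhrf1 held 25, with a peak over each, and the 200 bases of the long form of Dnmt3a, Tet3, Dnmt3b and the short form of Dnmt3a held 29, 28, 20 and 14 without one. Dnmt3l was the opposite case, with 4 CpG in 200 bases and a peak over the window. The shortened windows of Tet1 and Dnmt1, of 88 and 84 bases, held 6 and 7 CpG. The SP/KLF box was found in 4 of the 5 windows under a peak, all but the shortened one of Tet1. It was found in 3 of the 4 windows without a peak, all but that of the short form of Dnmt3a. Of the 32851 promoter windows of 200 bp in the annotation 31% held it, and the windows of Tet1 and Dnmt1 are shorter than these. The 32851 windows were not matched for GC content. In the windows shown it ran from 65.5% at Dnmt3l to 84% at the long form of Dnmt3a. The NF-Y box was found in the windows of Dnmt1, once, and of Uhrf1, at 2 places, and 29.3% of promoter windows held it. The E2F motif, the binding letters of the factors that drive genes of S phase, was found only in the Uhrf1 window of these 9, and 3.53% of promoter windows held it. The E-box was found in the windows of Dnmt3l, Tet3 and the short form of Dnmt3a, and 5.26% of promoter windows held it. These are matches of letters, not measured binding.

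**Figure D1:**
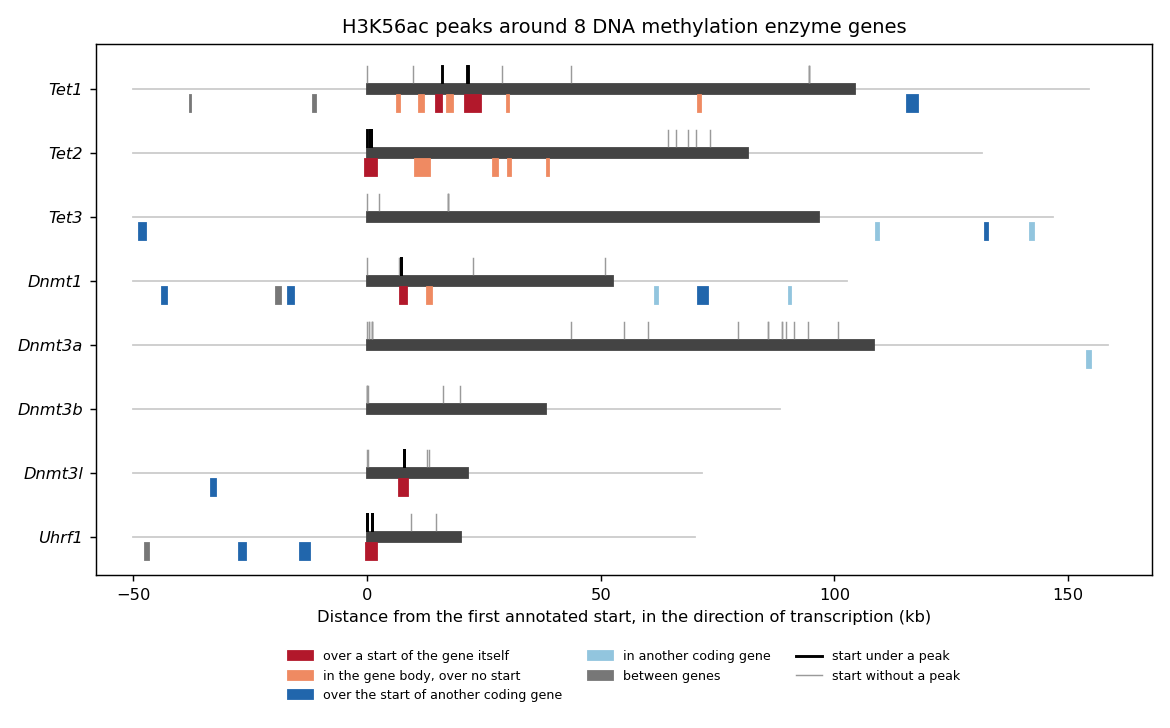
Peaks of the merged H3K56ac set around the 8 genes, with distance from the first annotated start in kb along the direction of transcription on the x axis and 1 gene per line; dark bars are gene bodies, ticks above them are annotated starts (black where under a peak), thin lines span the 50 kb flanks and coloured boxes are peaks by position. Tet1 has 7 peaks in its body and Tet2 has 5, whereas no peak lies in the bodies of Tet3, Dnmt3a and Dnmt3b.

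The peaks were spread unevenly over the genes. The Tet1 locus held 10, Dnmt1 8, Tet2 5, Tet3 and Uhrf1 4 each, Dnmt3l 2, Dnmt3a 1 and Dnmt3b 0. Per 100 kb of locus this was 5.24 for Dnmt1, 4.89 for Tet1, 3.33 for Uhrf1, 2.76 for Tet2, 2.03 for Tet3, 1.64 for Dnmt3l and 0.48 for Dnmt3a, where the median of all protein-coding loci was 0.832. As high a density was met by 3.25% of all genes for Dnmt1, 3.99% for Tet1, 12.1% for Uhrf1 and 16.8% for Tet2. For Tet3, Dnmt3l and Dnmt3a the shares were 23.4%, 32.4% and 60.1%. A locus without any peak, as at Dnmt3b, was met at 37% of all genes. By position, 6 of the 34 peaks lay over a start of the gene itself, 10 elsewhere in its body, 9 over the start of another coding gene, 5 in the body of another coding gene and 4 between genes. The map of the 8 loci shows that the dense Dnmt1 locus owed 6 of its 8 peaks to the flanks, whereas 7 of the 10 Tet1 peaks and all 5 Tet2 peaks lay in the gene.

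Tet1 encodes a TET protein with a CXXC domain that binds CpG-rich DNA. It spans chr10:62804570-62908996 on the minus strand and has 10 distinct annotated starts, of which 3 were carried. The main peak, chr10:62884623-62888107, was 3485 bp wide, the widest of the 34, and only 6.97% of all peaks over a coding start were as wide. It lay on the starts at 62887324 (Tet1-207, also the curated RefSeq start) and 62887512 (Tet1-210), and reached 783 bp upstream and 2701 bp downstream of the former. It thus extended mainly into the transcribed side, with its midpoint 959 bp downstream of the RefSeq start. A second peak of 1297 bp, chr10:62892892-62894188, lay on the upstream start at 62892986 (Tet1-209), and covered 1202 bp upstream of it but 94 bp downstream. The small nuclear RNA gene Gm26479 also starts under this peak.

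In GENCODE the transcripts of the 3 carried starts of Tet1 have an annotated coding sequence of only 47 codons each. None of them is a basic transcript. Coding lengths of RefSeq transcripts were not read, so these codons do not show what the curated RefSeq transcript from 62887324 encodes. The GENCODE start that gives the longest Tet1 coding sequence was not carried. This uncarried start, at 62899118 (Tet1-206, 2039 codons), lay 1223 bp upstream of the nearest peak edge. The start of the shorter form at 62880014 (Tet1-201, 2007 codons) lay 949 bp upstream of a peak. That peak, chr10:62878581-62879065, was 485 bp wide and lay wholly in exon 2 of Tet1-206. Whether Tet1 counts as carried thus depended on the transcripts used: with the starts of GENCODE basic transcripts alone it did not, and with the curated RefSeq starts it did.

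Around these starts Tet1 carried a row of peaks. The 6 most upstream of its 7 body peaks lay within 24009 bp and covered 35.4% of that stretch, with gaps of 1015 to 5557 bp between neighbours. The other 4 body peaks in the row, besides those over starts, were 781, 1115, 1345 and 485 bp wide, and the last body peak, 536 bp in intron 4, lay 40473 bp further downstream. As many as 7 body peaks were found in 20 genes of the 21938, or 0.0912%, a share over genes of any length. In all, peaks covered 9044 bp or 8.66% of the Tet1 body. Upstream of the gene lay 2 intergenic peaks of 729 and 367 bp, and in the downstream flank lay a peak of 2347 bp over the start of Ccar1, a coactivator of transcription and regulator of the cell cycle and apoptosis.

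The intron 1 peak of 1115 bp, chr10:62896781-62897895, held the letters TCAAGGTCA, the recognition sequence of the orphan nuclear receptor ESRRB, a factor of the pluripotency network. In the central 400 bp of all peaks this sequence was found in 1.01%, and in 2 of the 34 peaks here, the other being the peak in Bola3 near Tet3. The 60 bases around the match, read from the GRCm38.p6 reference, are shown because this was the only peak in a body of the 8 genes with a pluripotency motif of those searched. The octamer ATTTGCAT, bound by OCT4, was in the centre of 0 of the 34 peaks and of 1.52% of all peaks. Capitals mark the ESRRB letters.
Tet1 intronic peak, chr10:62897392-62897451, plus strand: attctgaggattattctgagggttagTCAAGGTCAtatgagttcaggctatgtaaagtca

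Tet2 encodes the TET enzyme that lacks a CXXC domain of its own. It spans chr3:133463679-133545139 on the minus strand, and its start carried a peak of 2647 bp, chr3:133542912-133545558, that covered 5 of its 10 distinct starts. Among these were the RefSeq start at 133544390 (Tet2-201, 1912 codons) and that of Tet2-204 at 133544368 (1920 codons), and the midpoint of the peak lay 155 bp downstream of the former. The antisense gene Gm42567 also starts under this peak, and a peak has no strand, so its acetylation cannot be assigned to either gene. The other 5 starts, all of short or noncoding transcripts in the downstream part of the gene, lay 25431 to 34296 bp from the nearest peak.

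A second wide peak of Tet2 lay in intron 1. It was 3380 bp wide, chr3:133531549-133534928, wider than the peak over the start, with its midpoint 11047 bp downstream of the nearest start, and only 2.04% of all peaks away from coding starts were as wide. Its GC content was 41.5% and its CpG ratio 0.281, against 56.4% and 0.746 for the peak over the start. Further in lay intronic peaks of 1116, 500 and 537 bp. The 5 body peaks covered 9.53% of the gene, against 8.66% at Tet1, and 0.283% of all genes had 5 or more body peaks. That share was not adjusted for gene length. Per 100 kb of locus, 16.8% of all genes had as high a density of peaks as Tet2. No peak lay in either flank of Tet2, and the next peaks were 876321 bp upstream and 152373 bp downstream.

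Tet3, at chr6:83362373-83459084 on the minus strand, had no peak in its body. Its CpG-rich start at 83456392 (Tet3-203, 1803 codons) lay 49931 bp from the nearest peak, and the start at 83441675 (Tet3-202, 1668 codons) lay 64648 bp from it. The 4 peaks of the locus lay in the flanks at other genes: 1494 bp over the start of Dguok, a mitochondrial deoxyguanosine kinase, 503 bp over that of Mob1a, an adaptor of Hippo kinases, 555 bp in Bola3, a factor of mitochondrial iron-sulphur cluster assembly, and 899 bp in Mthfd2, a mitochondrial enzyme of folate metabolism, where the noncoding gene Gm43890 starts. The 3 Tet genes thus differed: 7, 5 and 0 peaks lay in the bodies of Tet1, Tet2 and Tet3, which are 104427, 81461 and 96712 bp long.

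Dnmt1, the maintenance methyltransferase, spans chr9:20907209-20959888 on the minus strand. A peak of 1526 bp, chr9:20951282-20952807, lay on 2 of its 7 distinct starts, at 20952623 (Dnmt1-203, 1501 codons) and 20952605 (Dnmt1-207, 1502 codons). The start of the longest form, at 20952979 (Dnmt1-201, 1620 codons), lay 172 bp upstream of the edge of this peak, and the outermost start, at 20959888 (Dnmt1-202, 1501 codons), lay 7081 bp from it. The peak lay mostly downstream, with 184 bp upstream and 1341 bp downstream of the Dnmt1-203 start. A peak of 942 bp lay in intron 1. The gene-dense flanks carried peaks over the starts of Ppan (2088 bp), a ribosome biogenesis factor, S1pr2 (1253 bp), a receptor for sphingosine 1-phosphate, and Mrpl4 (999 bp), a protein of the mitochondrial ribosome. They also held peaks in Eif3g (760 bp), a subunit of a translation initiation factor, and in A230050P20Rik (325 bp), and an intergenic peak of 1149 bp.

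Uhrf1 recognises hemimethylated CpG and recruits DNMT1. It spans chr17:56303321-56323486 on the plus strand, and a peak of 2506 bp, chr17:56303032-56305537, lay on 5 of its 7 distinct starts. Both its upstream start at 56303321 (Uhrf1-201, 782 codons) and the RefSeq start at 56304313 (Uhrf1-202, 774 codons) were covered, the latter with the midpoint of the peak 28 bp upstream of it. No other peak lay in the body, and this peak covered 11% of the gene. The flanks held peaks over the starts of Plin3 (2236 bp), a lipid droplet protein, and Ticam1 (1411 bp), an adaptor of Toll-like receptors, and an intergenic peak of 796 bp. Both genes of maintenance methylation among the 8 thus had a carried start, as did 25% of all coding genes.

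Of the 3 genes of de novo methylation, only Dnmt3l had a carried start. It spans chr10:78041947-78063622 on the plus strand, and a peak of 1845 bp, chr10:78048906-78050750, lay on the starts at 78049842 (Dnmt3l-201) and 78049959 (Dnmt3l-208), both with a coding sequence of 421 codons. Its midpoint lay 14 bp upstream of the former. The upstream start at 78042287 (Dnmt3l-205, also 421 codons) lay 6619 bp from the peak, and the downstream start at 78055335, of transcripts with 126 codons, lay 4585 bp from it. Neither was carried. The flank held 1 further peak, of 1240 bp over the start of Pfkl, the liver form of phosphofructokinase.

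Dnmt3a, at chr12:3806007-3914443 on the plus strand, had 18 distinct starts and no peak on any of them or elsewhere in its body. Its long form starts at 3807030 and 3807160 (908 codons), 152887 and 152757 bp from the nearest peak. The short form, known as DNMT3A2 and as the main form in embryonic stem cells, starts at 3891728 and 3891744 (689 codons), 68189 and 68173 bp from the nearest peak. That peak, chr12:3959917-3960913, was 997 bp wide, lay in Pomc, the gene of the precursor of corticotropin and melanotropins, and was the only peak of the locus.

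Dnmt3b, at chr2:153649450-153687730 on the plus strand, was the only gene of the 8 without a peak in its locus. Its coding transcripts start between 153649450 and 153649617, with up to 860 codons, in sequence with a CpG ratio of 0.83, and 18% of all genes with a CpG-rich outermost start likewise had no peak in the locus. The nearest peak, chr2:153740710-153742358, was 1649 bp wide and lay over the start of Mapre1, which encodes a microtubule plus end protein. This peak lay 91260 bp from the outermost start of Dnmt3b and 52980 bp beyond the end of the gene, just outside the 50 kb flank. The peak counted for Dnmt3a lay 45474 bp beyond the end of that gene, just inside the flank. The nearest upstream peak, 2504 bp wide, lay over the start of Asxl1, a subunit of the Polycomb deubiquitinase.

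The peak-free stretches that held Tet3, Dnmt3a and Dnmt3b were 156, 386 and 392 kb long. Such lengths were common. Of the 13615 genes without a body peak, 75.9%, 55.7% and 55.5% lay in a stretch at least as long. Repeat-masked bases made up 23.7% of the Tet3 locus, 25.5% of Dnmt3a and 32.8% of Dnmt3b, and in the 5 loci with a carried start they made up 24% at Uhrf1, 31.7% at Dnmt1, 32.7% at Dnmt3l and 39.5% at both Tet1 and Tet2, so the ranges overlapped. Only reads placed at a single site had been kept. Within 1 kb of each of the 9 starts shown above, all 1927 stretches of 75 bases occurred once in the 21 assembled chromosomes. The rest of the gene bodies and of the peak-free stretches was not compared in this way, and the part of read placement in the absence of peaks was not tested.

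**Figure D2:**
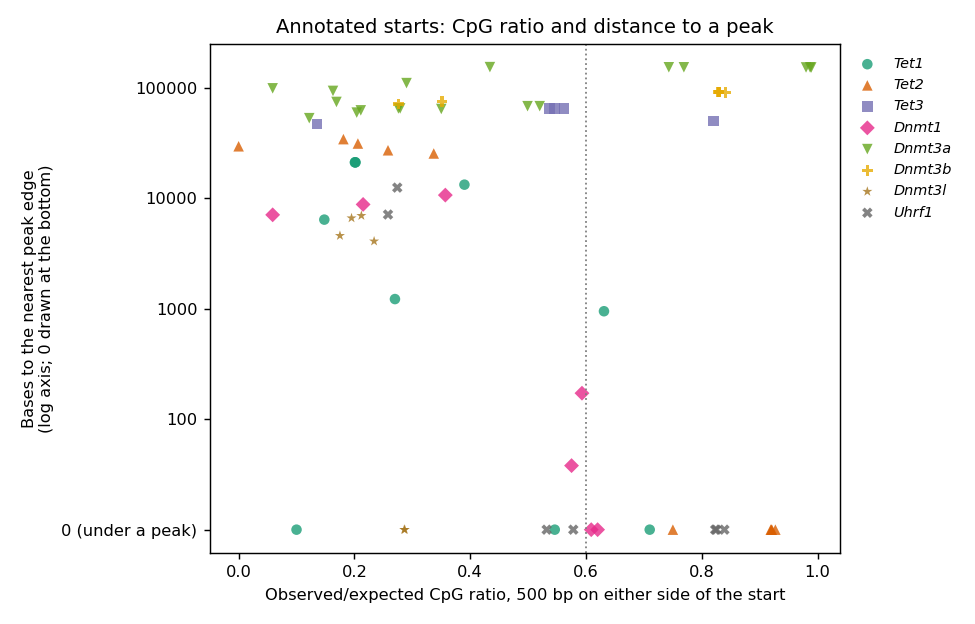
Each point is 1 of the 69 distinct annotated starts of the 8 genes, with the observed over expected CpG ratio within 500 bp on the x axis and the distance in bases to the nearest peak edge on a log y axis, starts under a peak at the bottom; the dotted line marks a ratio of 0.6. The CpG-rich starts of Dnmt3a and Dnmt3b lie at the top right, far from peaks, and those of Tet2 and Uhrf1 at the bottom right.

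In all, 17 of the 69 distinct starts of the 8 genes were carried. Starts close to each other share a peak: joining those less than 1 kb apart gave 39 promoters, of which 6 were carried. The share over all coding genes was computed for starts by CpG class only, as given next. It was not computed for joined promoters, so the 6 of 39 cannot be set against all genes. Of the 22 starts with a CpG ratio above 0.6, 11 were carried, where 40.9% of the 36140 such starts of all coding genes were. Of the 47 starts at or below this ratio, 6 were carried, where 6.76% of 57319 were. The 11 CpG-rich starts without a peak were 5 of Dnmt3a, 4 of Dnmt3b, 1 of Tet3 and 1 of Tet1, and all CpG-rich starts of Tet2, Dnmt1 and Uhrf1 were carried. The 6 CpG-poorer starts with a peak belonged to Tet1, Dnmt3l and Uhrf1. The ratios were 0.1 at the carried upstream start of Tet1 and 0.287 at the carried start of Dnmt3l, against 0.989 at the most CpG-rich start of Dnmt3a. The plot of CpG ratio against distance thus shows starts of like CpG ratio both under peaks and far from any.

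**Figure D3:**
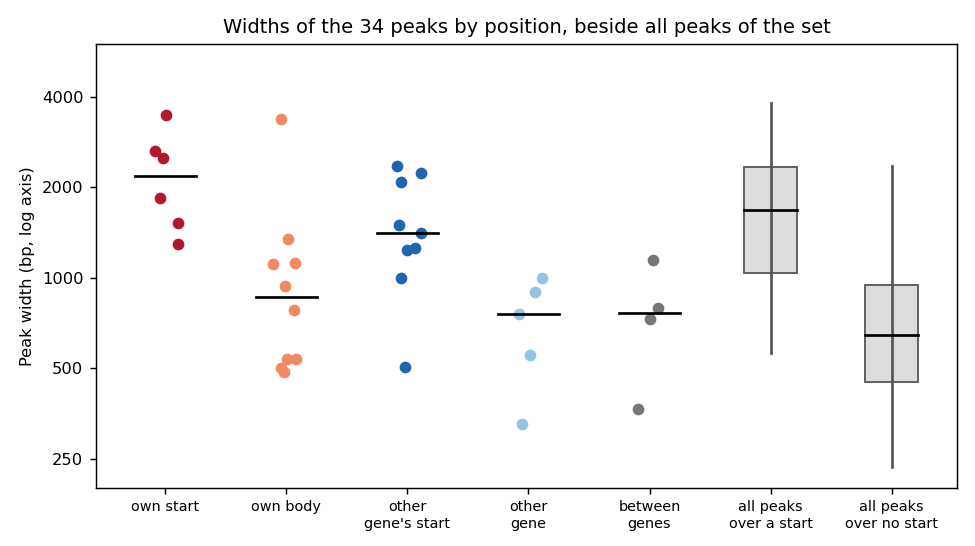
Widths in bp, on a log axis, of the 34 peaks by position (points, with black lines at the medians), beside all peaks of the set over a coding start and over no coding start (boxes span the quartiles, black lines mark medians, thin lines the 5th to 95th percentiles). Of the 10 peaks elsewhere in the bodies of the 8 genes, the Tet2 intron 1 peak of 3380 bp stands above the others, which reach 1345 bp.

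The 6 peaks over starts of the 8 genes were 1297 to 3485 bp wide, with a median of 2175.5 bp, and the 4878 peaks over any coding start had a median of 1684.5 bp. As wide a peak was found at 17.4% of these for Tet2, 20.3% for Uhrf1, 43.5% for Dnmt3l, 56.4% for Dnmt1 and 64.6% for the upstream peak of Tet1. The 10 other body peaks had a median of 861.5 bp (485 to 3380), and the 6228 peaks over no coding start had a median of 647 bp. In the plot of widths by position the peaks over starts of other genes, with a median of 1411 bp, lay between these classes. Width was the only measure of a peak in the set, and it holds no information on height. The peaks of all libraries were merged and no neighbours lay closer than 1000 bp. A wide peak may therefore join several separately called peaks.

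The peaks were also searched for motifs in their central 400 bp. The SP/KLF box was in 8 of the 34 peaks and in 30.8% of all peaks, and the NF-Y box in 9 and in 38.8%. The E-box was in 5 peaks, among them those over the starts of Tet1 and Dnmt3l, and in 9.09% of all peaks. The AP-1 motif TGANTCA was in 3 peaks, in Tet1, Tet2 and A230050P20Rik, and in 9.19% of all peaks. The E2F motif was in 3 peaks, over the starts of Uhrf1, Ccar1 and Mrpl4, and in 8.19% of all. The NRF1 motif GCGCNTGCG was in the Ccar1 peak alone of the 34, and in 4.57% of all.

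**Figure D4:**
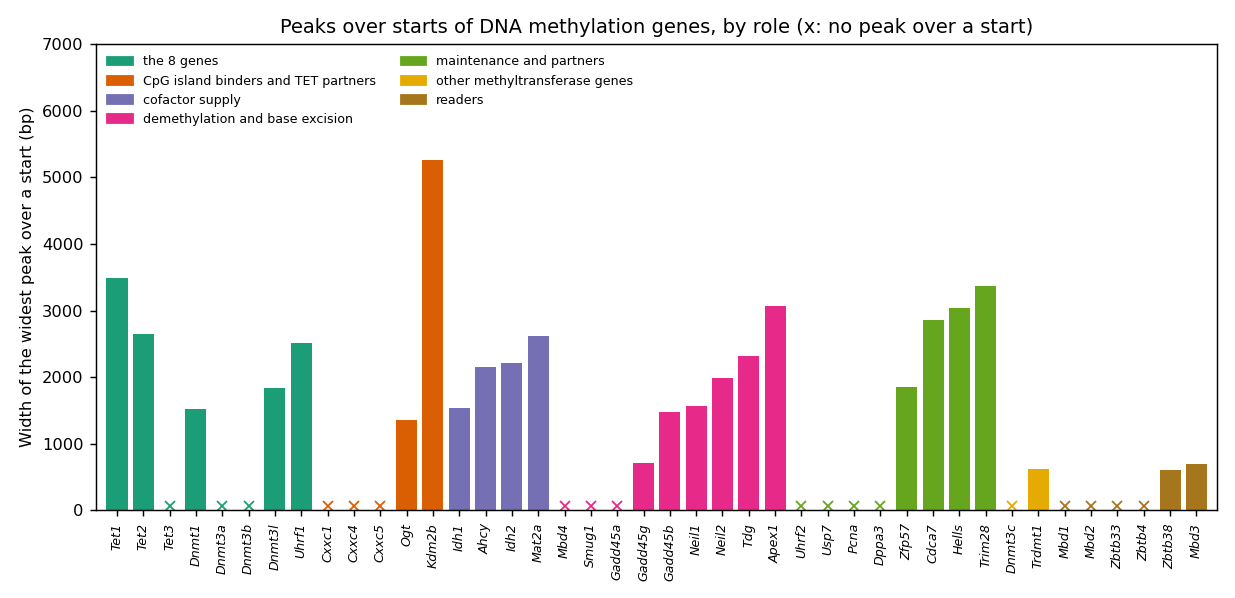
Width in bp of the widest peak over an annotated start, for the 8 genes and for 34 other genes of DNA methylation grouped by role (bar colours); a cross marks a gene without a peak over a start. All 4 genes of cofactor supply have a bar, and 2 of the 6 genes listed as readers do, where 25% of all coding genes have a peak over a start.

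The 8 genes were set beside a list of 34 other genes of the pathway, of which 19, or 55.9%, had a carried start, against the 25% of all coding genes. Of the 21 listed genes with a CpG-rich outermost start 12 had a carried start, beside the 42.1% of all such genes, and of the other 13 genes 7 had one, beside 10.5% of all genes with a CpG ratio of 0.6 or less there. The median width of their peaks was 1986 bp. Of 8 partners of maintenance methylation, 4 had a carried start: Trim28 (3368 bp), the corepressor that protects imprints, Hells (3043 bp), a chromatin remodeller, Cdca7 (2865 bp), its partner, and Zfp57 (1846 bp), the zinc finger protein that brings TRIM28 to imprints. Uhrf2, Usp7, Pcna and Dppa3 had none. Of the other genes of the methyltransferase family, Trdmt1, an RNA methyltransferase, carried a peak of 624 bp, and Dnmt3c, the rodent paralogue of Dnmt3b that acts in male germ cells, lay 44058 bp from the nearest peak.

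Where 25% of all coding genes had a carried start, 6 of 9 genes of demethylation and base excision, downstream of the TET enzymes, had one. These were Apex1 (3068 bp), the abasic site endonuclease, Tdg (2322 bp), the glycosylase that removes oxidised methylcytosine, the glycosylases Neil2 (1986 bp) and Neil1 (1565 bp), and Gadd45b (1482 bp) and Gadd45g (707 bp). Mbd4, Smug1 and Gadd45a had none. Tdg, Mbd4, Apex1, Gadd45a, Gadd45b and Gadd45g have a CpG-rich outermost start, a class in which 42.1% of all genes had a carried start. Neil1, Neil2 and Smug1 have one with a ratio of 0.6 or less, where the share was 10.5%. Cofactor supply was carried at all 4 genes. Mat2a (2619 bp) and Ahcy (2155 bp) make S-adenosylmethionine and clear its product, and Idh2 (2219 bp) and Idh1 (1536 bp) make the 2-oxoglutarate used by TET enzymes. All 4 have a CpG-rich outermost start, and 42.1% of all genes with such a start had a carried one. Of 5 CpG island binders and TET partners, Kdm2b carried the widest peak of the list at 5253 bp and Ogt, the O-GlcNAc transferase bound by TET proteins, a peak of 1351 bp. Cxxc1, Cxxc4 and Cxxc5 had none. Of 6 genes listed as readers of methylation, Mbd3 (691 bp) and Zbtb38 (608 bp) had a carried start, and there was none at Mbd1, Mbd2, Zbtb33 and Zbtb4. With the starts of GENCODE basic transcripts alone, neither Mbd3 nor Zbtb38 had a carried start.

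The labelled cell type was checked on marker genes. Of 7 genes of embryonic stem cells, 6 had a carried start (Pou5f1, Nanog, Sox2, Zfp42, Esrrb and Tdgf1), and the nearest peak edge lay 199 bp from a start of Dppa5a. Of 10 genes of fibroblasts, the usual feeder cells, 0 had a carried start. The outermost start was CpG-poor, with a ratio of 0.6 or less, in 9 of the 10 fibroblast genes and in 5 of the 7 stem cell genes, of which 0 and 4 had a carried start, and 10.5% of all such genes had one, so the count of 0 says little on feeder cells.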

How the data were processed

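H3K56ac and input DNA of Scramble and Sirt6 KD cells were sequenced. Per the study's methods, the authors trimmed the reads, aligned them to mm10 with Bowtie keeping reads that mapped to a single place, removed duplicates, called peaks with MACS2, removed blacklisted regions and merged the peaks of all H3K56ac libraries. The deposited positions (start and end of each peak, mm10) were used, counted from 1. The deposited score column was 0 for every peak and was not used. No pair of neighbouring peaks lay closer than 1000 bp. Starts and bodies were taken from GENCODE M21, and curated RefSeq transcripts were an alternative. Overlaps, CpG ratios, motif matches and counts of 75-base stretches in the genome were computed with Python 3.11.15, numpy 2.4.6 and pandas 2.3.3, and the overlap step was tested on simulated peaks. The genes and lists were chosen with earlier results of these data known. All 8 genes and every other gene with a start under one of their peaks were named. The wider list first held 2 further genes, which are not reported here and are in none of its counts, and its other 34 genes were named by role. No group comparison was made, since the merged list holds none.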

Additional observations from a re-analysis of the deposited data

How the results depend on the processing

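Of 30 alternative values, 27 stayed within 1.5 times the reported one and 3 did not. With flanks of 10 kb, 17 peaks in place of 34 belonged to the 8 loci. With GENCODE basic transcripts alone 10 of the distinct starts, in place of 17, were carried, and with starts less than 1 kb apart joined 6 were. The latter alternative and the curated RefSeq transcripts were chosen after seeing the data. The number of genes with a carried start was 5 under each alternative except basic transcripts, where it was 4, without Tet1. The share of all coding genes with a carried start ranged from 21.8% with curated RefSeq transcripts to 35.7% when any peak base within 1 kb counted. Peaks per 100 kb over the 8 loci ranged from 1.84 with flanks of 100 kb to 2.84 with 20 kb, against 2.57, and the wider list had 17 to 25 genes with a carried start, against 19. No paired analysis was possible because the peaks of both groups had been pooled into 1 list without library labels, and for the same reason no replicate could be left out. The unknown read counts and peak heights at each locus limit what the absence of a peak at Tet3, Dnmt3a and Dnmt3b shows. Acetylation there was not detectable as a peak in this set.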

Other observations

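Several genes of the wider list had a peak close to a start but not on it. The nearest peak edge lay 71 bp from a start of Cxxc1, which encodes the CpG-binding subunit of the SETD1 histone methyltransferase, 305 bp from Gadd45a, 451 bp from Usp7, a deubiquitinase that stabilises DNMT1 and UHRF1, 616 bp from Uhrf2, the paralogue of Uhrf1, 841 bp from Mbd2, a reader of methylated CpG, and 905 bp from Cxxc5. Usp7 had 5 peaks in its body, as many as Tet2, without a peak on a start. With any peak base within 1 kb counted, 25 of the 34 genes had a peak at a start, the same 1 kb rule under which 35.7% of all coding genes did.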
